A study of Homo sapiens with 16 samples.

Results

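Gene expression in NCI-H596 cells after 12 h of hepatocyte growth factor (HGF) was compared with that of the same cells after 6 h, using the 2 libraries labelled 12 h and the 2 labelled 6 h out of 16 in the series. NCI-H596 is a lung adenosquamous carcinoma line whose MET transcript lacks exon 14 (MET∆14), and the cells were deprived of serum, for 12 h by the sample labels and for longer by the study's methods, before HGF was added. The other libraries used here are those of NCI-H596 at 0 h (no HGF) and 3 h, and those of the line labelled MET wt at 6 and 12 h, each with 2 replicates. The titles name this line A549, whereas the study's text names EKVX as its cells with wt MET, and which of these lung adenocarcinoma lines was sequenced is not settled here. Each MET status is represented by a single line, and no cells kept without HGF were sampled at 6 or 12 h, so hours of HGF and hours without serum cannot be told apart. The labels do not say whether replicates came from separate cultures. The p-values measure only the spread between libraries, as estimated over all 16 of the series.

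MET is the receptor tyrosine kinase for HGF. Exon 14 encodes the juxtamembrane stretch that recruits the ubiquitin ligase CBL, and its loss slows removal of the activated receptor. A growth factor that reaches its receptor first induces immediate early transcription factors, then secreted ligands, cytokines and proteases, and then the phosphatases and SPRY proteins that limit MAP kinase signalling, while AKT keeps FOXO factors out of the nucleus and MYC raises genes for ribosome assembly.

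Total counts of the 16 libraries lay between 10158590 (12 h replicate 2) and 23909304 (6 h replicate 2). The squamous keratin KRT5 stood at 2120 and 2460 CPM (counts scaled to the library size) in the 6 h libraries. SOX2, another squamous marker, was at 0.52 and 0.73 CPM there. The 7 squamous markers summed to 2749 to 3381 CPM at 6 h. The 5 simple epithelial markers, such as KRT8 and KRT19, summed to 2978 to 3225 CPM at 6 h and to 2015 to 2796 CPM at 12 h. The lung markers NKX2-1, SFTPB, SFTPC and SFTPA1 did not exceed 3 counts in any library of 6 or 12 h. The other glandular markers KRT7 (344 and 378 CPM at 6 h) and MUC1 (99.3 and 93.5 CPM) were expressed, and the summed level of that list was 443.6 to 471 CPM at 6 h and 342 to 356 CPM at 12 h. At most 3 counts were also found for 4 of 7 fibroblast, 5 of 7 leukocyte and 3 of 5 endothelial markers, although COL3A1 and CD68 from these lists were present. The summed levels at 6 and 12 h were 187 to 347 and 255 to 256 CPM for fibroblast, 148 to 161 and 115 to 151 CPM for leukocyte, and 3.13 to 3.22 and 2.13 to 2.22 CPM for endothelial markers. MET itself was at 392 and 443 CPM at 6 h and at 396 and 382 CPM at 12 h. These ranges overlapped, and the log2 fold change of -0.10 ± 0.09 (SE) did not pass the test (adjusted p = 0.428).

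The 12 h replicates were uneven. Across the 15067 genes tested, the SD of the log2 gap between replicates was 0.565 at 12 h and 0.359 at 6 h, and among 10009 genes whose mean log2 CPM was 3 or more the replicates were over 2-fold apart for 162 genes at 12 h and for 3 at 6 h. As a description across genes, log2 CPM correlated with r = 0.982 between the 12 h replicates and r = 0.993 between the 6 h replicates, and 12 h replicate 2 was closer to the 6 h libraries (0.986 and 0.987) than 12 h replicate 1 was (0.977 and 0.977). For this reason the levels of the genes described first in each group are given in both 12 h libraries, and the medians of most gene lists also as the difference of each 12 h replicate from the mean of the 6 h libraries. Counts of list members called are also given without a 12 h library or with library weights where they moved by over 1.5 times. Calls over all genes moved in those fits as well, and library weights called 391 genes higher and 447 lower. Such counts show how far the calls depend on the libraries and are not results about a list.

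From 6 to 12 h, 2806 of 15067 genes (18.6%) changed, which here means a Benjamini-Hochberg adjusted p under 0.05 from the quasi-likelihood test of edgeR. Of these, 1250 genes (8.3% of those tested) were higher and 1556 (10.3%) were lower at 12 h, and 425 changed at least 2-fold in either direction. Counts of list members below are to be read against these shares, and a count near them is not a result about its list. The median size of the change over the called genes was 0.56 on the log2 scale in the fit, 0.68 in replicate 1 and 0.41 in replicate 2. Replicate 1 moved further than replicate 2 in 2226 of the called genes and replicate 2 further in 577. For 2794 called genes (99.6%) both 12 h libraries lay on one side of both 6 h libraries, an ordering that 21.8% of all genes showed upward and 28.3% downward.

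**Figure D1:**
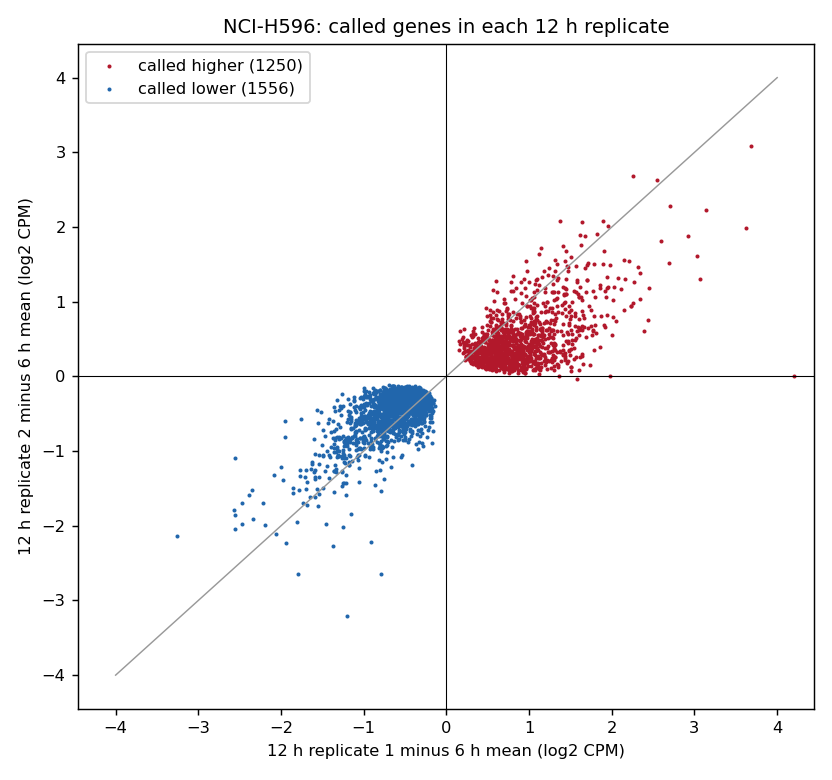
Log2 CPM of 12 h replicate 1 (horizontal axis) and 12 h replicate 2 (vertical axis), each minus the mean of the 6 h libraries, for the 1250 genes called higher and the 1556 called lower in NCI-H596. The grey line marks equal change, and 2226 genes moved further in replicate 1, with a median size of 0.68 in replicate 1 and 0.41 in replicate 2.

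The fit shares a single estimate of the spread over all 16 libraries, and the counts moved with the libraries and weights used. A model that weights each library by its own scatter gave the 12 h libraries weights of 0.204 and 0.209, against 1.17 to 1.24 at 6 h, and called 838 genes, of which 834 were among the 2806. Without 12 h replicate 1, 1662 genes were called, and without 12 h replicate 2, 6434. Leaving out 6 h replicate 1 gave 1438 and 6 h replicate 2 gave 852. A set of 1217 genes, 411 higher and 806 lower, was called with all libraries and also without either 12 h replicate. With the 4 libraries of 6 and 12 h alone, edgeR called 0 genes, whereas 2386 had an unadjusted p under 0.05, DESeq2 on all 16 libraries called 2605 and the smallest adjusted p of the fit on 4 was 0.0768.

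The change from 6 to 12 h went more often against the early response to HGF than with it. Of the 1250 genes higher at 12 h than at 6 h, 664 (53.1%) were lower at 3 h than at 0 h and 28 (2.24%) were higher. Of the 1556 lower genes, 850 (54.6%) were higher at 3 h and 70 (4.5%) lower. Among all genes tested, 15.5% were called higher and 16.1% lower at 3 h, and the contrasts share no library. Log2 fold changes of the contrasts correlated with r = -0.30 across genes, which are not independent replicates.

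CCN2, GDF15, ANKRD1 and CXCL8 were among the 15 largest falls. CCN2, a matricellular protein and target of the YAP coactivator, was at 74.9 and 88.3 CPM at 6 h and at 14.6 and 20.5 CPM at 12 h (-2.25 ± 0.18 as log2 fold change and its SE, adjusted p = 3.63e-06). It had been at 36.6 and 43.9 CPM without HGF, so that both 12 h libraries lay below both untreated ones. GDF15, a secreted stress cytokine, fell from 48.4 and 56.0 CPM to 8.76 and 14.3 CPM (-2.23 ± 0.16, adjusted p = 1.61e-06). ANKRD1, another YAP target, fell from 13.5 and 22.0 CPM to 4.05 and 3.89 CPM (-2.18 ± 0.29, adjusted p = 0.000262), and its call was lost without 12 h replicate 1. CXCL8, the neutrophil chemokine interleukin 8, was at 151 and 166 CPM at 6 h against 31.0 and 55.2 CPM at 12 h (-1.90 ± 0.22, adjusted p = 0.000119). Both 12 h libraries lay below both 6 h libraries in each of these genes, which the rule for naming the largest falls required. Replicate 1 was the lower of the 12 h libraries for CCN2, GDF15 and CXCL8.

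The promoters of CCN2, ANKRD1 and CXCL8 are shown because these genes were among the largest falls and hold letters that YAP partners or AP-1 bind. The stretches lie within 250 bases before the RefSeq start of each gene (GRCh38.p14) and are written 5′ to 3′ on the strand of the gene. Capitals mark GGAATG, the core letters that TEAD factors bind as partners of YAP, in CCN2 and ANKRD1, and TGANTCA, the AP-1 letters, where N is any base, in CXCL8. The stretch of ANKRD1 also holds TGATTCA, a match to the AP-1 letters, which is left in lower case.
CCN2 (chr6:131951501-131951576, minus strand): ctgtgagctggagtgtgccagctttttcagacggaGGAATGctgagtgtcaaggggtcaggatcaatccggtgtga
ANKRD1 (chr10:90921267-90921337, minus strand): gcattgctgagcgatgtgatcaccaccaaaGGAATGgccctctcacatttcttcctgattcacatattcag
CXCL8 (chr4:73740397-73740473, plus strand): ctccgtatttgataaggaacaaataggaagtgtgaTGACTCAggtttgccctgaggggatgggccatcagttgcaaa
CCN2 held 3 matches to GGAATG on either strand and ANKRD1 held 2, of which the most distal is shown. On either strand, GGAATG was present in 4 of the 16 promoters found for the YAP target list (25%) and in 11.9% of all 27305 promoters. TGANTCA was present in 4 of 24 promoters of the cytokine list, in 5 of 13 of the proteolysis list, in 1 of 17 of the MAP kinase feedback list, in 0 of 18 of the immediate early list and in 6.6% of all promoters. It had no match in the promoters of DUSP6, HBEGF and IL1B. A match describes these letters only.

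Immediate early transcription factors fell as a group. Of 24 tested, 14 were lower and 2 higher at 12 h, with a median log2 fold change of -0.72 (-0.79 in replicate 1 and -0.66 in replicate 2) against -0.02 over all genes. With library weights 9 were lower and 1 higher. FOSL1, an AP-1 subunit that accumulates under lasting ERK activity, fell from 328 and 337 CPM to 103 and 116 CPM (-1.60 ± 0.14, adjusted p = 7.93e-06), still above the 43.5 and 53.7 CPM seen without HGF. EGR1, a zinc finger factor induced by ERK, fell from 81.8 and 89.2 CPM to 33.3 and 29.2 CPM (-1.45 ± 0.24, adjusted p = 0.00144) and had been highest, at 212 and 228 CPM, without HGF. MYC fell from 164 and 169 CPM to 71.2 and 74.8 CPM (-1.19 ± 0.11, adjusted p = 9.63e-06). FOSB fell by 1.29 on the log2 scale, and the calls of EGR1 and FOSB were lost without 12 h replicate 1. The members that rose were FOSL2 (0.56), an AP-1 subunit, and BTG2 (0.57), which restrains proliferation.

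Inhibitors of MAP kinase signalling fell with the factors that the pathway induces. In this list 10 of 22 genes were lower and 3 higher, with a median of -0.33 (-0.25 in replicate 1 and -0.43 in replicate 2). The higher genes numbered 1 without 12 h replicate 1, 5 without replicate 2 and 0 with library weights. DUSP6, a cytoplasmic ERK phosphatase, was at 78.1 and 74.9 CPM at 6 h and at 25.2 and 29.9 CPM at 12 h (-1.48 ± 0.09, adjusted p = 1.04e-06), against 30.8 and 33.0 CPM without HGF. The nuclear phosphatases DUSP1 and DUSP5 fell by 1.56 and 1.33 on the log2 scale (adjusted p = 1.61e-06 and 3.09e-06). For DUSP6, 28.6% of the exon sequence overlaps an antisense gene and the use of strand in counting is not given in the sources used here, so that part of its count is uncertain. SPRY4, a receptor signalling antagonist, fell from 65.9 and 67.4 CPM to 42.6 and 31.5 CPM (-0.83 ± 0.13), still above the 9.58 and 13.7 CPM without HGF. The 3 members that rose were the ETS factors ETV1 (from 1.65 and 0.90 CPM to 2.68 and 2.04 CPM) and ETV5 (0.54) and the inhibitor SPRED3 (0.62).

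Several ligands of the ERBB receptors fell. Of the 21 genes in the MET and ERBB list, 7 were lower and 5 higher, and 3 were higher without 12 h replicate 1, 9 without replicate 2 and 1 with library weights. The EGFR ligand HBEGF was at 128 and 158 CPM at 6 h and at 41.1 and 49.5 CPM at 12 h (-1.66 ± 0.12, adjusted p = 1.61e-06), above its 26.1 and 30.7 CPM without HGF. Epigen (EPGN) fell from 62.2 and 73.3 CPM to 14.5 and 20.8 CPM (-1.97 ± 0.16, adjusted p = 7.93e-06), below the 35.9 and 37.9 CPM without HGF. Amphiregulin (AREG) and epiregulin (EREG) fell by 1.29 and 1.16 on the log2 scale (adjusted p = 2.69e-05 and 2.5e-06). In all of these ligands both 12 h libraries were below both 6 h libraries, and 99.6% of all called genes were separated between the times. Genes that rose included ERBB3, the pseudokinase partner of ERBB2, from 4.27 and 3.56 CPM to 9.09 and 7.60 CPM (1.12 ± 0.26, adjusted p = 0.00796, not called without 6 h replicate 2). The MET adaptor GAB1 (0.84) and the ubiquitin ligase CBL (0.46) also rose. Both were named after their values were seen, and whether their calls hold in the other fits is not shown here.

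Cytokines and extracellular proteases were also lower. The list of NF-kappaB feedback genes and cytokines had 13 of 30 genes lower and 1, the subunit REL (0.86), higher, with a median of -0.50 (-0.45 and -0.39 in the replicates). Besides CXCL8, the interleukins IL1B, IL1A and IL6 fell by 1.53, 1.19 and 1.59 on the log2 scale, IL1B from 112 and 91.5 CPM to 30.8 and 39.9 CPM (adjusted p = 5.17e-05). Of this list 8 genes were lower without 12 h replicate 1 and 4 with library weights. IL6 was not called with library weights. Of 25 genes of pericellular proteolysis, 9 were lower and 0 higher (median -0.46, and -0.46 and -0.41 in the replicates). Tissue plasminogen activator (PLAT) fell from 92.6 and 113 CPM to 28.3 and 36.3 CPM (-1.69 ± 0.12, adjusted p = 1.75e-06). SERPINB2, the inhibitor of urokinase, fell from 895 and 1140 CPM to 239 and 405 CPM (-1.66 ± 0.22, adjusted p = 0.000306) but stayed above the 64.8 and 72.8 CPM without HGF, and part of its exon sequence overlaps another gene on the same strand. The other named members, TIMP3, an inhibitor of metalloproteinases, and the protease MMP28, fell by 0.98 and 0.76. Both calls were lost without 6 h replicate 2, and that of TIMP3 also without 12 h replicate 1.

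Of 21 YAP targets, 6 were lower and 0 higher, with a median of -0.10 (0.00 in replicate 1 and -0.18 in replicate 2), and CCN2 and ANKRD1 are among the 6. With library weights 4 were lower and 0 higher. CCN1, a matricellular protein related to CCN2, fell from 289 and 306 CPM to 120 and 142 CPM (-1.19 ± 0.14, adjusted p = 6.62e-05). Tissue factor (F3), which starts coagulation and is also in this list, fell from 1182 and 1235 CPM to 631 and 570 CPM (-1.01 ± 0.11) and remained above the 176 and 214 CPM without HGF. Thrombomodulin (THBD), an anticoagulant receptor outside the list, fell from 267 and 283 CPM to 103 and 107 CPM (-1.39 ± 0.09, adjusted p = 1.58e-06). CD274, the immune checkpoint ligand PD-L1, was at 4.89 and 3.83 CPM without HGF, at 37.5 and 49.9 CPM at 6 h and at 14.8 and 14.4 CPM at 12 h (-1.59 ± 0.17, adjusted p = 4.38e-05).

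**Figure D2:**
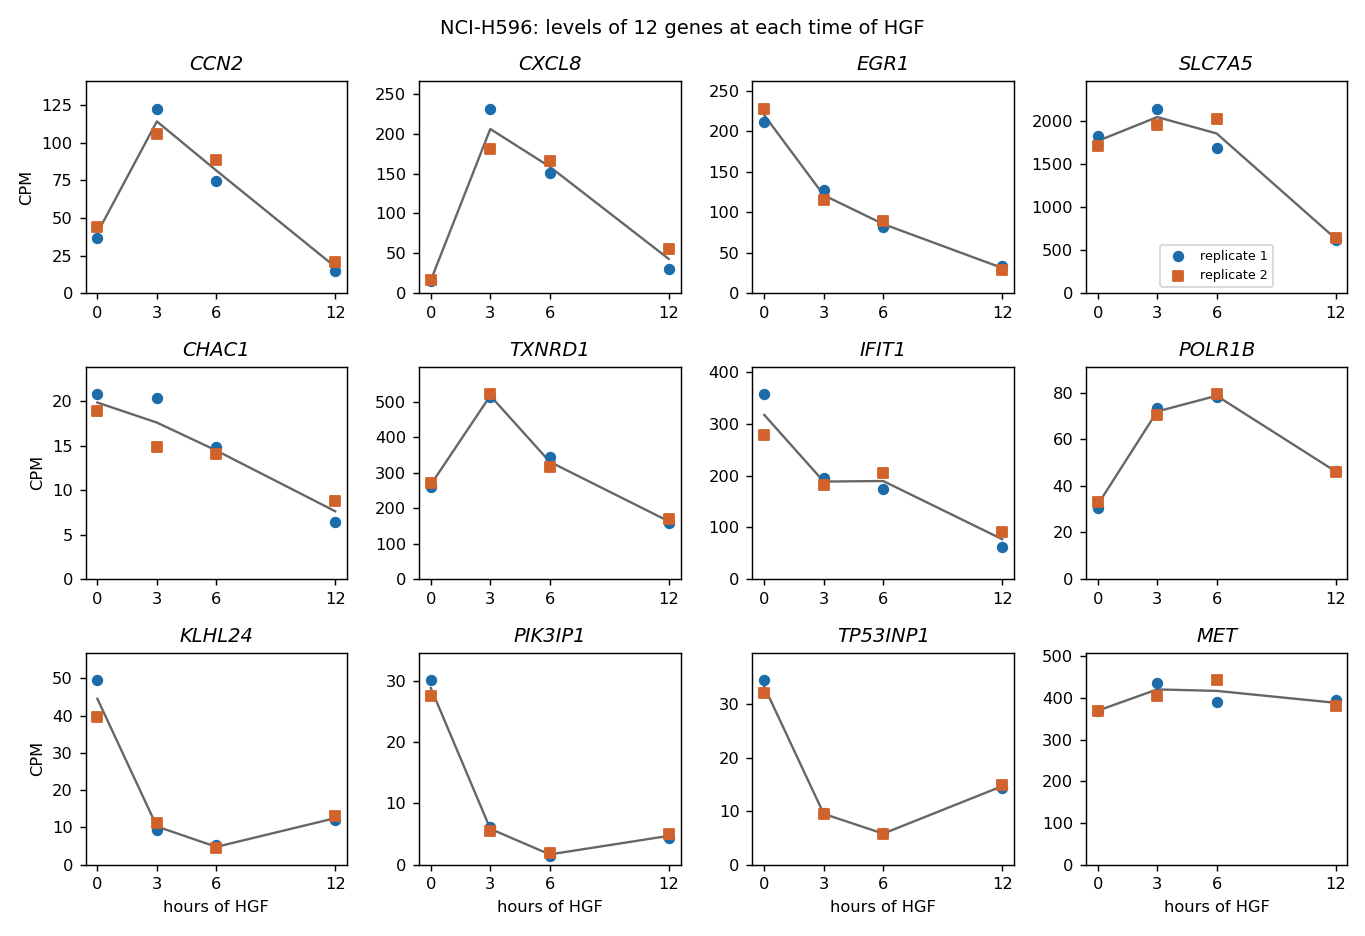
Level in CPM (linear axes from 0) of 12 genes in NCI-H596 at 0, 3, 6 and 12 h of HGF, with circles for replicate 1, squares for replicate 2 and a line through the means. CCN2 and CXCL8 peak at 3 h and are lower at 12 h than at 6 h, KLHL24, PIK3IP1 and TP53INP1 are lowest at 6 h and higher at 12 h, and MET stays between 369 and 443 CPM.

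Genes that ATF4 induces when amino acids are scarce fell broadly. Of 29 tested, 19 were lower and 0 higher, with a median of -0.63 (-0.69 in replicate 1 and -0.41 in replicate 2), and 13 were lower with library weights and 12 without 12 h replicate 1. SLC7A5 and SLC3A2, the light and heavy chains of the large neutral amino acid transporter, moved together. SLC7A5 was at 1684 and 2021 CPM at 6 h and at 621 and 646 CPM at 12 h (-1.55 ± 0.11, adjusted p = 1.67e-06), and SLC3A2 at 710 and 819 CPM and then at 263 and 336 CPM (-1.35 ± 0.13, adjusted p = 1.13e-05). Both ended below their levels without HGF, 1827 and 1703 CPM for SLC7A5 and 563 and 523 CPM for SLC3A2. The cystine transporter SLC7A11, which also belongs to the NRF2 list, fell from 330 and 300 CPM to 151 and 118 CPM (-1.22 ± 0.18, adjusted p = 0.000594). CHAC1, an enzyme that degrades glutathione, fell from 14.9 and 14.1 CPM to 6.46 and 8.81 CPM (-0.95 ± 0.20, adjusted p = 0.00511), a call that was lost without 12 h replicate 1. Aminoacyl-tRNA synthetases, of which 7 of 20 were lower and 0 higher, changed less (median -0.20), for example WARS1 for tryptophan (-0.62) and GARS1 for glycine (-0.36, not called without 6 h replicate 2). Of the synthetases 4 were lower without 12 h replicate 1, 11 without replicate 2 and 3 with library weights.

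Antioxidant genes under NRF2 formed another falling group, with 19 of 27 lower and 0 higher and a median of -0.48 (-0.69 and -0.41 in the replicates). The lower genes numbered 11 without 12 h replicate 1 and 10 with library weights. Thioredoxin reductase TXNRD1 had risen from 261 and 273 CPM without HGF to 514 and 521 CPM at 3 h. It stood at 346 and 316 CPM at 6 h and at 157 and 169 CPM at 12 h (-1.02 ± 0.09, adjusted p = 5.54e-06), below both untreated libraries. The aldo-keto reductase AKR1B10 fell by 1.26 on the log2 scale (adjusted p = 0.00274), a call lost without 12 h replicate 1. SRXN1, which repairs oxidised peroxiredoxins, fell by 1.05, but 90.7% of its exon sequence is shared with another gene of the same strand and its count is uncertain.

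The promoters of CHAC1 and TXNRD1 show the letters tied to these factors, taken from the same table and written in the same way. Capitals mark TGATGNAA or its reverse complement TTNCATCA, bound by ATF4 dimers, in CHAC1, and TGACNNNGC, the core of the NRF2 element, in TXNRD1.
CHAC1 (chr15:40953227-40953304, plus strand): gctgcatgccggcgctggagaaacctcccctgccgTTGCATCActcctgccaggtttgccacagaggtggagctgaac
TXNRD1 (chr12:104215645-104215723, plus strand): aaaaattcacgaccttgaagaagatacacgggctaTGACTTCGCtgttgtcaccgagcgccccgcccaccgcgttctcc
TGATGNAA was found on either strand in 2 of 24 promoters of the ATF4 list (8.33%), in 2 of 16 of the tRNA synthetases (12.5%) and in 3.19% of all promoters. It had no match in the promoters of SLC7A5, SLC3A2, WARS1, CARS1 and GARS1. TGACNNNGC was found in 5 of 21 promoters of the NRF2 list (23.8%) and in 11% of all promoters, and had no match in that of SRXN1.

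Interferon-stimulated genes were expressed in these cells before HGF was added. Of 34 tested, 18 were lower at 12 h than at 6 h and 0 higher, with a median of -0.54, more in replicate 1 (-0.73) than in replicate 2 (-0.32). The count of lower genes was 13 without 12 h replicate 1, 28 without replicate 2 and 10 with library weights. IFIT1, which binds foreign RNA caps, was at 357 and 278 CPM without HGF, at 173 and 205 CPM at 6 h and at 62.5 and 91.5 CPM at 12 h (-1.31 ± 0.17, adjusted p = 0.000224). IFIT3, its binding partner, fell from 158 and 195 CPM to 70.6 and 84.5 CPM (-1.19 ± 0.14, adjusted p = 9.77e-05). The guanylate-binding protein GBP1 and the antiviral GTPase MX2 fell by 1.39 and 1.18 on the log2 scale, and MX2 was not called with library weights. ISG15, a ubiquitin-like modifier, did not pass the test (adjusted p = 0.177). It stood at 134 CPM in 12 h replicate 1 and at 297 CPM in replicate 2 against 301 and 321 CPM at 6 h. Promoters of 3 of these genes are shown for the letters they share. The interferon-stimulated response element, searched as TTTC, 2 bases of any kind and TTTC again, occurred on either strand in 13 of the 25 promoters found for the list (52%) and in 3.07% of all promoters. Capitals mark the matches.
IFIT1 (chr10:89392472-89392551, plus strand): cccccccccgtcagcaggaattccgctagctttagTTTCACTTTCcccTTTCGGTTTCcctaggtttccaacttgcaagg
IFIT3 (chr10:89327806-89327885, plus strand): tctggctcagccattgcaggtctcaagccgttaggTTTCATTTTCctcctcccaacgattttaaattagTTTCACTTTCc
GBP1 (chr1:89065291-89065370, minus strand): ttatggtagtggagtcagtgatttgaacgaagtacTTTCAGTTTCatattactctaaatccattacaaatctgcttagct

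Ribosome assembly genes fell almost as a whole and to the same degree in both 12 h replicates. Of 35 tested, 27 were lower and 0 higher (17 lower with library weights, 23 called without either 12 h replicate), with a median of -0.44, and of -0.51 in replicate 1 and -0.52 in replicate 2. POLR1B, a subunit of RNA polymerase I, had risen from 30.7 and 33.1 CPM without HGF to 78.2 and 79.3 CPM at 6 h and was at 46.5 and 46.0 CPM at 12 h (-0.77 ± 0.07, adjusted p = 1.63e-05). The RNA helicase DDX21, which acts in rRNA processing, fell from 523 and 527 CPM to 305 and 317 CPM (-0.76 ± 0.09, adjusted p = 8.22e-05), against 140 and 156 CPM without HGF. RRS1, which loads the 5S particle, and RRP9, a factor of the small subunit, fell by 0.91 and 0.81 on the log2 scale. In all of these genes both 12 h libraries lay between the untreated and the 6 h libraries. CACGTG, the E-box that MYC binds, was present in 3 of 30 promoters of this list (10%) and in 6.49% of all promoters, with no match in those of POLR1B, DDX21 and RRP9.

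The structural proteins of the ribosome divided the 12 h replicates. All 54 ribosomal protein genes tested had a negative log2 fold change (median -0.26 in the fit), but none passed the test in edgeR. Of these genes 2 had an unadjusted p under 0.05 and 0 were called in DESeq2. Their median was -0.64 in 12 h replicate 1 and 0.04 in replicate 2, so whether they fell is not settled here. Their share of all counts was 1.68% in 12 h replicate 1, 2.65% in replicate 2 and 2.48% and 2.39% at 6 h. Without replicate 2 all 54 would have been called lower. The subunits of the respiratory chain (2 of 38 lower, -0.49 in replicate 1 and 0.00 in replicate 2) and of the proteasome (1 of 31 higher, -0.30 and 0.04) showed the same division between replicates. The members called were SDHD (-0.38) and NDUFB5 (-0.44) of the respiratory chain and PSMD2 (0.33) of the proteasome. All 3 calls were lost without either 6 h library and with library weights. Without 12 h replicate 1 SDHD was at -0.20 and NDUFB5 at -0.15 and neither was called, and NDUFB5 was not called in DESeq2 either. Without 12 h replicate 2, 31 respiratory chain genes and 19 proteasome genes were called lower, and SDHD and NDUFB5 were at -0.57 and -0.78.

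**Figure D3:**
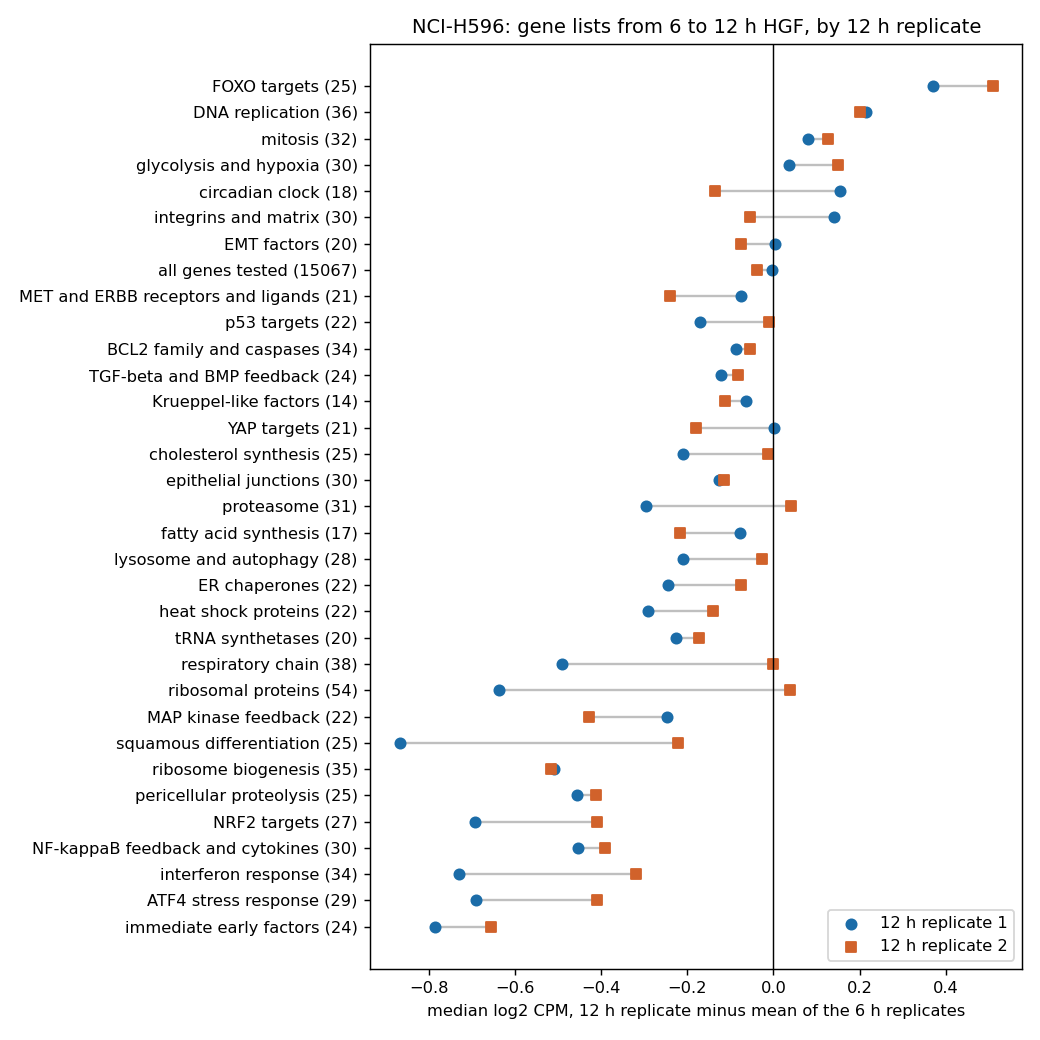
Median over each gene list (tested members in parentheses) of log2 CPM at 12 h minus the mean of the 6 h libraries in NCI-H596, for 12 h replicate 1 (circles) and replicate 2 (squares). Ribosome biogenesis is near -0.5 in both replicates, whereas ribosomal proteins are at -0.64 and 0.04 and respiratory chain subunits at -0.49 and 0.00.

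Genes that FOXO factors activate when AKT signalling is low rose from 6 to 12 h. Of 25 tested, 11 were higher and 2 lower, with a median of 0.42, 0.37 in replicate 1 and 0.51 in replicate 2, and all 11 rises were also called without either 12 h replicate, while 7 genes were higher with library weights. KLHL24, a ubiquitin ligase adaptor, had dropped from 49.5 and 39.5 CPM without HGF to 5.24 and 4.37 CPM at 6 h, and stood at 12.0 and 13.0 CPM at 12 h (1.40 ± 0.15, adjusted p = 4.59e-05). PIK3IP1, an inhibitor of PI3 kinase, was at 30.1 and 27.6 CPM, then at 1.497 and 1.89 CPM, then at 4.43 and 5.01 CPM (1.43 ± 0.20 from 6 to 12 h, adjusted p = 0.000314). CCNG2, a cyclin linked to growth arrest, went from 7.34 and 7.88 CPM at 6 h to 15.1 and 20.5 CPM (1.20 ± 0.17, adjusted p = 0.000319). These genes were above both 6 h libraries in each 12 h replicate, a separation between times seen in 99.6% of called genes, and remained below both untreated libraries. The members that fell were the stress sensor GADD45A (-0.92) and the insulin receptor substrate IRS1 (-0.40). TGTTTAC, the FOXO letters, was present on either strand in 2 of 22 promoters of the list (9.09%) and in 2.98% of all promoters, with no match in those of KLHL24, PIK3IP1 and CCNG2.

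Targets of p53 moved in both directions, 3 of 22 higher and 9 lower (1 and 5 with library weights). TP53INP1, which promotes autophagy and cell death, rose from 5.84 and 5.78 CPM to 14.4 and 14.9 CPM (1.33 ± 0.13, adjusted p = 1.77e-05), whereas the kinase PLK2 and the nuclease AEN fell by 0.77 and 0.78 on the log2 scale. Among 34 genes of the BCL2 family and caspases, 2 were higher and 6 lower, against 1 and 3 with library weights. APAF1, the scaffold of the apoptosome, rose from 11.3 and 10.6 CPM to 23.4 and 17.0 CPM (0.91 ± 0.13, adjusted p = 0.000425). The antiapoptotic MCL1 fell from 1097 and 1125 CPM to 788 and 769 CPM (-0.51 ± 0.09, adjusted p = 0.00211) and BCL2L1 from 549.1 and 525 CPM to 273 and 356 CPM (-0.77 ± 0.11, adjusted p = 0.000264). For BCL2L1, 41.3% of the exon sequence overlaps an antisense gene. The death receptor TNFRSF10A fell by 0.71.

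Part of the list of glycolytic and hypoxia-induced genes rose, 9 of 30 against 2 that fell, HK2 (-0.57), which phosphorylates glucose, and the peptide hormone ADM (-0.66). ENO2, an enolase, went from 9.43 and 9.30 CPM to 25.6 and 21.4 CPM (1.34 ± 0.15, adjusted p = 5.46e-05). BNIP3, a mitophagy receptor, went from 34.7 and 31.3 CPM to 67.5 and 68.3 CPM (1.05 ± 0.08, adjusted p = 2.7e-06) and ended above its 36.5 and 37.3 CPM without HGF. The histone demethylase KDM3A and the regulator of fructose 2,6-bisphosphate PFKFB4 rose by 1.18 and 1.25 on the log2 scale. All 9 rises were also called without either 12 h replicate, 7 genes were lower without replicate 2, and the list median was 0.08, near that of all genes.

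Genes of DNA replication rose modestly, 10 of 36 higher and 0 lower, with a median of 0.21 that was alike in replicate 1 (0.22) and replicate 2 (0.20). With library weights 6 were higher. ORC1, of the origin recognition complex, went from 8.08 and 8.53 CPM to 17.0 and 15.8 CPM (0.98 ± 0.15, adjusted p = 0.000464). UHRF1, which maintains DNA methylation, went from 62.3 and 68.4 CPM to 117 and 91.5 CPM (0.68 ± 0.12, adjusted p = 0.00159), and the factor E2F2 rose by 0.88, a call lost without 6 h replicate 2. TTTNGCGC, the E2F letters, was found in 7 of 30 promoters of the list (23.3%) and in 1.54% of all promoters. Of 32 mitotic genes 8 were higher and 3 lower (median 0.10), the lower count being near the 10.3% of all genes. With library weights 2 were higher and 1 lower. ASPM, a spindle pole protein, rose from 90.8 and 98.5 CPM to 173 and 119 CPM (0.63 ± 0.15, adjusted p = 0.00862) and CENPF, a kinetochore protein, from 146 and 155 CPM to 274 and 169 CPM (0.56 ± 0.17, adjusted p = 0.0385). These rises were 0.33 for ASPM and 0.16 for CENPF without 12 h replicate 1 and were not called. The call of ASPM was also lost without 6 h replicate 1 and that of CENPF without either 6 h library, and CENPF was at 0.86 without 12 h replicate 2. The members that fell were CCNB1 (-0.53), the mitotic cyclin, and UBE2C (-0.46) and CDC20 (-0.38), which act in its degradation. CCNB1 was not called without either 6 h library and was at -0.33 without 12 h replicate 1. TTTGAA, the cell cycle homology region, was found in 15 of 27 promoters of the mitotic list (55.6%) and in 13.6% of all promoters.

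The 15 largest rises formed no single list. TP73, a relative of p53, was at 125 and 133 CPM without HGF, at 18.7 and 16.1 CPM at 6 h and at 56.8 and 42.7 CPM at 12 h (1.53 ± 0.16, adjusted p = 2.95e-05). The oestrogen-responsive receptor GPER1 went from 8.23 and 7.84 CPM to 26.7 and 23.3 CPM (1.64 ± 0.17, adjusted p = 2.95e-05). EFNA1, the ephrin ligand of EPHA2, went from 20.6 and 26.2 CPM to 55.1 and 63.6 CPM (1.33 ± 0.14, adjusted p = 3.4e-05), past the 53.9 and 43.9 CPM without HGF. The others were ANKRD36 (1.64), PHF21A (1.47), TRERF1 (1.46), ANKZF1 (1.42), CAMKK1 (1.41), DNHD1 (1.36), VANGL2 (1.34), VAMP1 (1.29), DLX3 (1.27) and NBEAL2 (1.27) with ENO2 and TP53INP1. In 13 of these 15 genes replicate 1 rose further than replicate 2, the exceptions being EFNA1 and TP53INP1. DNHD1, a dynein heavy chain relative, shows the extent, with 15.1 and 15.7 CPM at 6 h and 54.3 and 23.1 CPM at 12 h, and its rise was 0.58 and not called without 12 h replicate 1. Without that library NBEAL2 was at 0.64 and VANGL2 at 0.87, both still called. The calls of DNHD1, NBEAL2 and VAMP1 were lost without 6 h replicate 2. ANKRD36 belongs to a family of near-identical copies, and its count is uncertain.

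Epithelial genes changed in part. In the squamous differentiation list 7 of 25 were lower and 0 higher, with a median of -0.87 in replicate 1 and -0.22 in replicate 2. The 6 h libraries differed as well, with a median log2 gap (replicate 1 minus replicate 2) of -0.44 beside a median change of -0.43 in the fit. There were 16 lower genes without 12 h replicate 2 and 2 with library weights. Transglutaminase 1 (TGM1), which crosslinks the cornified envelope, fell from 18.6 and 31.5 CPM to 6.62 and 8.16 CPM (-1.80 ± 0.22, adjusted p = 8.91e-05), and the keratins KRT13 and KRT16 fell by 1.43 and 1.03 on the log2 scale. KRT16 was at -0.68 without 12 h replicate 1 and at -0.67 without 6 h replicate 2, and was not called in either case. With library weights TGM1 and KRT16 were not called. None of the 7 squamous lineage markers (among them TP63 and KRT5) passed the test in edgeR (2 with an unadjusted p under 0.05, 0 called in DESeq2), and their summed level was 2749 to 3381 CPM at 6 h and 2362 to 2991 CPM at 12 h. Of 30 junction genes 6 were lower and 2 higher (3 lower with library weights). The gap junction protein GJB2 fell from 145 and 192 CPM to 60.3 and 69.2 CPM (-1.39 ± 0.15, adjusted p = 3.2e-05), and the tight junction protein CLDN1 also fell (-0.76). Of 20 factors that govern epithelial-mesenchymal transition, 3 were higher and 0 lower, and those 3 were the epithelial factors ELF3 (1.05), GRHL3 (0.79) and GRHL1 (0.73). ELF3 was at 36.8 and 32.1 CPM without HGF, at 4.42 and 3.98 CPM at 6 h and at 8.59 and 8.62 CPM at 12 h, and its call was lost without either 12 h replicate and without 6 h replicate 2. GRHL1 was at 0.36 and not called without 12 h replicate 1, and the calls of GRHL1 and GRHL3 were lost without either 6 h library. With library weights 0 of the 20 factors were called, 6 having an unadjusted p under 0.05 in edgeR and 3 being called in DESeq2. The factors numbered 5 higher and 2 lower without 12 h replicate 2. Of 30 integrin and matrix genes 2 were higher, tenascin C (TNC) from 209 and 250 CPM to 437 and 325 CPM (0.73 ± 0.12, adjusted p = 0.00117) and integrin ITGA5 (0.34), and thrombospondin 1 (THBS1) was lower (-1.33). These counts are under the shares of all genes, 8.3% higher and 10.3% lower. ITGA5 was not called without 6 h replicate 1, and 10 genes of this list were higher without 12 h replicate 2 and 3 lower without replicate 1.

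In the list of TGF-beta and BMP feedback 5 of 24 genes were higher and 6 lower (3 higher without 12 h replicate 1, 2 and 3 with library weights). The ligand BMP2 fell from 202 and 222 CPM to 93.6 and 102 CPM (-1.12 ± 0.10, adjusted p = 9.63e-06), back to the 92.2 and 98.6 CPM without HGF. ID2, an inhibitor of helix-loop-helix factors, rose from 12.9 and 11.1 CPM to 25.7 and 29.6 CPM (1.21 ± 0.12, adjusted p = 1.94e-05), and the inhibitory SMAD6 rose by 0.97. The call of SMAD6 was lost without 6 h replicate 2 and without 12 h replicate 1, where it was at 0.62. Heat shock proteins fell in 9 of 22 and rose in 0 (median -0.19), such as HSPA8, from 2603 and 2632 CPM to 1457 and 1881 CPM (-0.65 ± 0.13, adjusted p = 0.00292), and ER chaperones fell in 2 of 22, HSPA5 (-0.55) and the factor XBP1 (-0.55). Both calls were lost without 6 h replicate 2, and XBP1 was at -0.32 and not called without 12 h replicate 1. With library weights 4 heat shock genes were lower, and without 12 h replicate 2, 10 ER chaperones.

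In the remaining lists, calls went in both directions or were few. Over all genes tested 8.3% were higher and 10.3% lower, and several of the counts here lie near those shares. Sterol synthesis had 1 of 25 genes higher, the kinase MVK (0.63), and 4 lower. Fatty acid synthesis had 2 of 17 higher and 3 lower, among them the factor SREBF1 (0.42) and the ligase ACSL4 (-0.48). In the list of lysosome and autophagy 3 of 28 genes were higher and 5 lower, with the kinase ULK1, which starts autophagy, higher (0.94) and the receptor SQSTM1 lower (-0.90). For SQSTM1, 22.4% of the exon sequence overlaps an antisense gene. Of 18 clock genes 2 were higher, RORA (1.22) and ARNTL (0.45), and 2 lower, PER2 (-0.55) and PER3 (-0.59). The calls of RORA and ARNTL were lost without 12 h replicate 1, without 6 h replicate 2 and with library weights, and RORA was at 0.72 without 12 h replicate 1. PER2 was at -0.90 without 12 h replicate 1 and at -0.35 without replicate 2, and was not called without 6 h replicate 2. Of 14 Krueppel-like factors 2 were higher, such as KLF9 (1.03), and 4 lower, such as KLF15 (-1.05) and KLF6 (-0.70), and KLF9 was not called without 6 h replicate 2. Among 9 transcripts that are retained in the nucleus or lack a poly(A) tail, 0 were higher and 1, the histone H1-2 (-0.58), lower. H1-2 was not called without either 6 h library or without 12 h replicate 1, where it was at -0.21, and was at -1.01 without 12 h replicate 2. SREBF1 and ULK1 were not called without 12 h replicate 1 or 6 h replicate 2, nor SREBF1 without 6 h replicate 1. Without 12 h replicate 2 the lower genes numbered 11 in sterol synthesis and 12 in lysosome and autophagy, and 6 Krueppel-like factors were higher.

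The unevenness of the 12 h replicates followed gene length. Genes were divided into 10 bins by the length of their longest annotated transcript. The median difference of 12 h replicate 1 from the 6 h mean went from -0.33 in the shortest bin (75 to 1328 nt) to 0.31 in the longest (7939 to 44880 nt). That of replicate 2 lay between -0.06 and 0.00 in every bin. Across genes the gap between the 12 h replicates correlated with log2 length with r = 0.269 and with GC content with r = 0.0131, and the gap between the 6 h replicates with length with r = 0.00577. The number of genes called higher increased with each bin, from 31 in the shortest to 259 in the longest. The number called lower was 89 in the shortest bin, reached 210 in the bin of 1964 to 2497 nt and was 77 in the longest. After a correction of each library for length and GC content, chosen after seeing the data, 3134 genes were called, and ribosome biogenesis (28 lower), FOXO targets (11 higher), interferon response (18 lower), NRF2 targets (16 lower) and ATF4 targets (17 lower) had similar counts. The part of length in the changes of single genes was not tested otherwise.

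**Figure D4:**
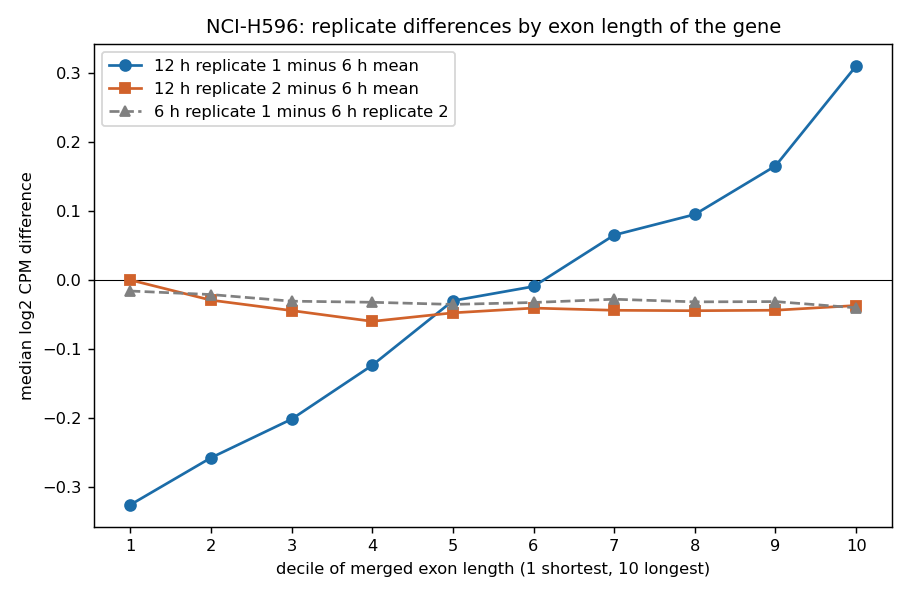
Median log2 CPM difference in each of 10 bins of the tested genes ordered by the length of the longest annotated transcript (labelled merged exon length on the axis), for 12 h replicate 1 (circles) and 12 h replicate 2 (squares) minus the 6 h mean and for 6 h replicate 1 minus 6 h replicate 2 (triangles), all in NCI-H596. The line of 12 h replicate 1 runs from -0.33 to 0.31, and that of 12 h replicate 2 stays between -0.06 and 0.00.

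The genes with the widest gap between the 12 h replicates, among those with steady 6 h levels, are given as a description. RGPD5, of a family of near-identical copies whose counts are uncertain, was at 25.2 and 24.2 CPM at 6 h, at 32.5 CPM in 12 h replicate 1 and at 4.54 CPM in replicate 2. The membrane mucin MUC16 was at 38.0 and 39.5 CPM at 6 h and at 50.3 and 14.4 CPM at 12 h. The genes IFNE (22.3 and 7.23 CPM), L3MBTL1 (46.5 and 15.5 CPM) and HSF4 (22.1 and 7.42 CPM) were likewise higher in 12 h replicate 1. For HSF4 and L3MBTL1, 27.1% and 21.7% of the exon sequence overlaps another gene of the same strand. Lower in replicate 1 were SELENOM (9.63 and 23.5 CPM), RPL18AP3 (8.49 and 20.4 CPM), ISG15, CITED4 (4.76 and 10.7 CPM) and SNCG (5.53 and 12.1 CPM). Of these 10 genes L3MBTL1 (1.20), CITED4 (-1.37) and SNCG (-0.97) passed the test from 6 to 12 h. Without 12 h replicate 1 their values were 0.15, -0.83 and -0.46 and only CITED4 was called, and without replicate 2 SNCG was at -1.59. L3MBTL1 and SNCG were also not called without either 6 h library.

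The change over the same hours in the line with wt MET overlapped in part with that of NCI-H596. There 842 genes (5.59%) were higher and 901 (5.98%) lower at 12 h than at 6 h. The lines shared 140 higher genes, which are 11.2% of those of NCI-H596 and 16.6% of those of the wt MET line, and 193 lower genes, 12.4% and 21.4%. Another 70 genes were higher in NCI-H596 and lower with wt MET, and 126 the reverse. Log2 fold changes correlated with r = 0.10 across genes. Testing this difference between the lines called 1865 genes (12.4%), 794 (5.27%) more positive and 1071 (7.11%) more negative in NCI-H596. Leaving out NCI-H596 12 h replicate 2 raised this to 5145, and leaving out NCI-H596 6 h replicate 1 or 2 or any wt MET library of 6 or 12 h lowered it to between 884 and 1126.

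Among the 33 lists, the median difference between the lines was 0.94 for mitosis, -0.66 for ATF4 targets, 0.53 for DNA replication and -0.51 for ribosome biogenesis. With wt MET 26 of 32 mitotic genes were lower and 0 higher at 12 h than at 6 h (median -0.76, against 0.10 in NCI-H596), and 27 of the 32 had a more positive change in NCI-H596 when the difference was tested. Ribosome biogenesis genes had a median of 0.09 with wt MET and -0.44 in NCI-H596, and 23 of 35 were more negative in NCI-H596. POLR1B shows this, falling in NCI-H596 and rising with wt MET (0.30), a difference of -1.06 (adjusted p = 3.15e-05). For ATF4 targets 15 of 29 were more negative in NCI-H596, and 6 rose with wt MET. CHAC1 rose there from a mean of 14.0 to 27.3 CPM (0.97, adjusted p = 0.00259), a difference between the lines of -1.92 (adjusted p = 0.000418). The changes of CCN2, CD274, THBD and RGS2, an inhibitor of G protein signalling, were also more negative in NCI-H596, by -2.07, -2.07, -2.01 and -1.89.

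Immediate early factors fell with wt MET too, 18 of 24 with a median of -0.90, and some fell further there. EGR1 went from a mean of 598 to 98.2 CPM with wt MET (-2.61) and the difference between the lines was 1.16 (adjusted p = 0.0345). The AP-1 subunit JUNB was at 130 and 144 CPM at 6 h and at 96.6 and 125 CPM at 12 h in NCI-H596 (-0.31 ± 0.12, adjusted p = 0.0736), and it fell from a mean of 541 to 111 CPM with wt MET (-2.29, difference 1.97, adjusted p = 1.47e-05). Of the other genes with the most positive differences, PHLDB1 (2.26), a cytoskeletal adaptor, and ULK1 (2.08) rose in NCI-H596 and fell with wt MET, and CYP1B1 (1.88), an oxidase of steroids and xenobiotics, fell in both lines. The ligand WNT9A (1.94) fell with wt MET (-1.69) and did not pass the test in NCI-H596 (0.25, adjusted p = 0.309). FOXO targets rose in both lines, 11 of 25 in each, with medians of 0.42 and 0.25. When the difference was tested, 5 of the 25 were more positive and 5 more negative in NCI-H596. PIK3IP1 fell with wt MET, from a mean of 3.04 to 1.39 CPM (-1.12, difference 2.55, adjusted p = 0.000128). Interferon genes such as IFIT1, GBP1 and MX2 had means under 1 CPM with wt MET, so that no comparison of their change could be made.

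**Figure D5:**
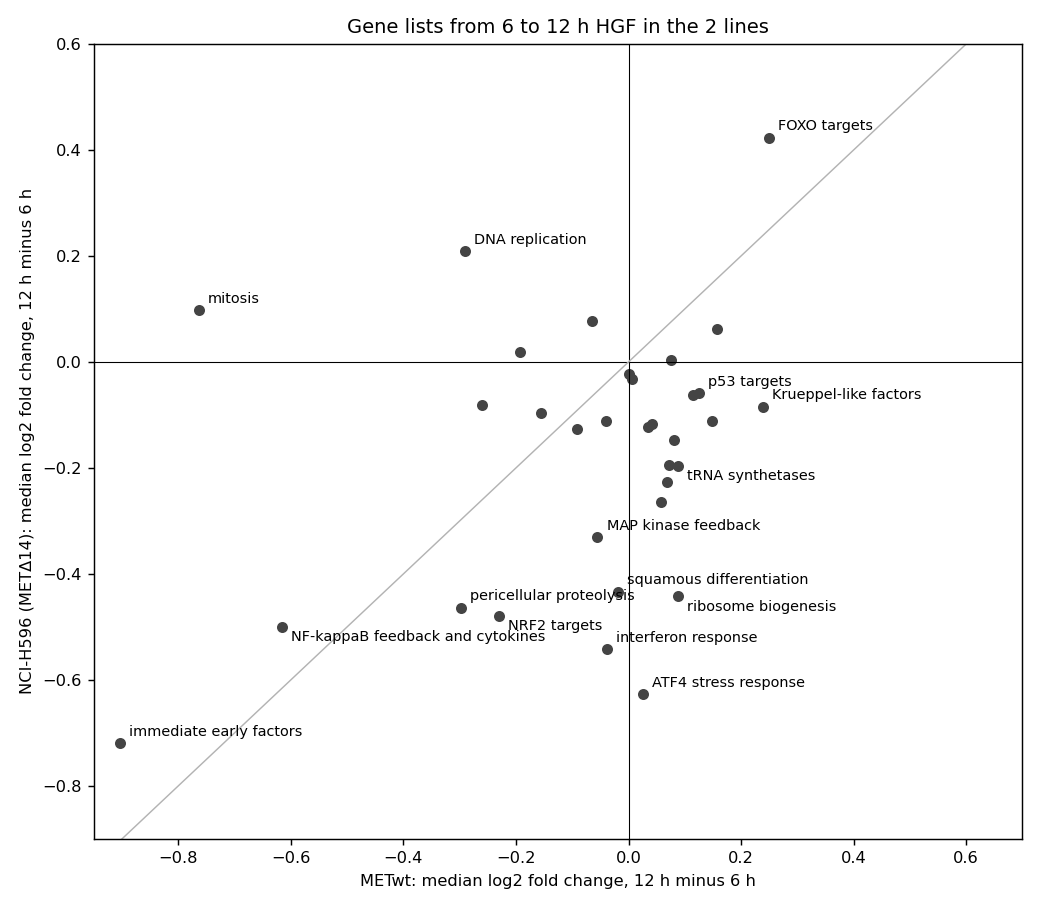
Median log2 fold change from 6 to 12 h of each gene list in the wt MET line (horizontal axis) and in NCI-H596 (vertical axis), where the grey line marks equal values and the unlabelled points are the other lists and all genes. Mitosis lies at -0.76 and 0.10 and ribosome biogenesis at 0.09 and -0.44, whereas immediate early factors are negative in both lines.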

How the data were processed

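Polyadenylated RNA of 16 libraries was sequenced, per the labels with Illumina kits. The authors removed adapter sequence, aligned with STAR to hg38 and deposited a table of raw whole-number counts per gene. The submitters' processing notes name STAR 2.5.0 and RSEM 1.3.2, so the counts may be rounded RSEM estimates. The annotation and the use of strand are not given in the sources used here. The table names the wt MET columns by a slightly different line name than the titles do, and 0 columns were without a sample.

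From these counts edgeR 4.0.16 and limma 3.58.1 were run in R 4.3.3. Genes that passed filterByExpr at a count of 10 and a total of 15 were 15067 of 42351 and held 99.958% of counts. Counts were scaled by TMM. A robust quasi-likelihood model with 1 coefficient per condition was fitted over all 16 libraries, which share the estimate of spread. Each SE is the absolute log2 fold change divided by the square root of the F statistic of this test. It reflects that shared spread and not that of the 12 h pair alone. The Benjamini-Hochberg method adjusted p over all genes tested, at a threshold of 0.05. Library sizes for CPM were scaled by TMM, and a prior count of 2 was used for log2 CPM. Intervals of counting error are not given, and depth limits genes of few counts.

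The comparison, its 33 gene lists (plus 6 marker lists, 898 entries of which 874 were tested) and the motifs searched were chosen with earlier results of these data known. Genes named were MET, the 15 largest rises and falls among called genes whose mean log2 CPM reached 3 and with no overlap between times, up to 4 called members of each list whose mean log2 CPM reached 1, the 5 largest differences between the lines in each direction (both lines reaching a mean log2 CPM of 3), and the 5 widest gaps between the 12 h replicates in each direction (6 h gap under 0.5). Members of a list that went against its majority, and GAB1 and CBL, were named after their values were seen. Length and GC content are those of the longest annotated transcript of each gene, and these and the exon overlaps are from GENCODE on hg38. Promoters are from RefSeq (GRCh38.p14), in which 250 bases before each start were searched and up to 35 bases shown either side of a match. Scripts were tested on simulated data. Alternatives were DESeq2 1.42.0 and its size factors, limma voom with library weights, other filters, a replicate block, fewer libraries, each library left out in turn, a minimum log2 change of 1 and, added after seeing the data, a length and GC correction.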

Additional observations from a re-analysis of the deposited data

Results flagged for a closer look

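Testing how the lines differ in their change from 6 to 12 h called 1865 genes (12.4% of those tested), among them 82 of the genes chosen for naming. The naming rules drew on this test and on the calls from 6 to 12 h in NCI-H596, so the number 82 is raised by that choice. Values are the log2 change in NCI-H596 minus that in the wt MET line, and each differed at an adjusted p under 0.05 in edgeR. The lines differ in more than MET, and no difference can be tied to MET∆14 by this design.

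More negative in NCI-H596 were the YAP targets CCN2 (-2.07), ANKRD1 (-1.62) and CCN1 (-0.79). Immune and vascular genes with the same sign were CD274 (-2.07), THBD (-2.01), THBS1 (-0.80), TGFB2 (-1.32), PLAT (-1.24) and CRISPLD2 (-1.27). For TGFB2, 22.7% of the exon sequence overlaps another gene of the same strand. The signalling inhibitors were RGS2 (-1.89), DUSP6 (-1.66), DUSP5 (-1.60) and DUSP1 (-1.46), and the ERBB ligands were HBEGF (-0.97), AREG (-0.97) and EREG (-0.94). Among transcriptional regulators were MYC (-1.20), FOSL1 (-0.92), CITED4 (-1.30), XBP1 (-1.03), KLF6 (-0.52) and PER3 (-0.76).

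Amino acid and redox genes that were more negative in NCI-H596 were CHAC1 (-1.92), GDF15 (-1.65), SLC7A11 (-1.35), SLC7A5 (-1.27), SLC3A2 (-1.21), TXNRD1 (-1.17) and SRXN1 (-0.79), together with the synthetases GARS1 (-0.82), WARS1 (-0.82) and CARS1 (-0.59). Ribosome assembly gave RRS1 (-1.42), POLR1B (-1.06), DDX21 (-0.90) and RRP9 (-0.67). Genes of survival, autophagy and chaperoning were BCL2L1 (-1.17), TNFRSF10A (-0.93), PLK2 (-0.90), AEN (-0.58), MAP1LC3B (-0.95), SQSTM1 (-0.56), HSPA5 (-0.65) and HSPD1 (-0.43). The rest were CLDN1 (-0.91), H1-2 (-0.90), ACSL4 (-0.65) and SDHD (-0.59).

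More positive in NCI-H596 were the FOXO targets PIK3IP1 (2.55), CCNG2 (1.08) and KLHL24 (0.78) and the p53 target TP53INP1 (0.62). These do not stand for their lists. Of 25 FOXO targets 5 were more positive and 5 more negative, and of 22 p53 targets 1 was more positive and 8 more negative. Cell cycle genes were CDC25C (2.15), ASPM (1.42), CENPF (1.14) and UHRF1 (0.98). Genes that hypoxia induces were ENO2 (1.53), PFKFB4 (1.47), KDM3A (1.27) and BNIP3 (1.03). Immediate early and related factors, which fell with wt MET, were JUNB (1.97), FOSB (1.66), EGR1 (1.16) and KLF10 (0.63). Among the largest rises of NCI-H596 were EFNA1 (1.73), DNHD1 (1.48), ANKRD36 (1.44), NBEAL2 (1.44), ANKZF1 (1.33), CAMKK1 (1.23) and PHF21A (1.23). Others were PHLDB1 (2.26), ULK1 (2.08), TIMP3 (2.02), WNT9A (1.94), CYP1B1 (1.88), SMAD6 (1.73), ID2 (1.58), SREBF1 (0.89), ARNTL (0.86), ITGA5 (0.85) and MVK (0.71).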

How the results depend on the processing

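The 2806 genes called from 6 to 12 h in NCI-H596 (1250 higher, 1556 lower) became 2790 with DESeq2 size factors, 2605 in DESeq2, 3652 without a filter, 2919 with at least 10 counts in every library and 3134 after the length and GC correction. Of the alternatives, the larger shifts came with library weights, 838 (391 higher, 447 lower), with the 8 NCI-H596 libraries, 1422 (621 and 801), with the 4 libraries of 6 and 12 h, 0 (0 and 0), and with an absolute log2 fold change of at least 1, 425 (255 and 170). When single libraries were left out, the count ranged from 852 to 6434 (higher 352 to 3072, lower 500 to 3362), lowest without 6 h replicate 2 and highest without 12 h replicate 2. The 1865 differences between the lines (794 more positive, 1071 more negative) ranged from 884 to 5145 (435 to 2638 and 441 to 2507) and became 534 (321 and 213) at an absolute log2 value of at least 1. Without a filter 1302 were more positive. Some of these fits had fewer libraries, and the causes of the shifts were not tested.

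No gene called both in the full fit and under an alternative changed direction in any of the comparisons run. Of the 137 named genes called, 82 were called under all of 12 alternatives other than the fit on 4 libraries. With library weights 37 lost their call, among them ANKRD1, EGR1, FOSB, CHAC1, AKR1B10, IL6, MX2, TGM1, PFKFB4 and TGFB2. The direction of MUC16, which was not called, turned to 0.37 without 12 h replicate 2, and its value was -1.44 without replicate 1. DESeq2 size factors shifted the median of all genes to -0.01. The labels do not say whether replicate numbers pair the libraries across times. Gaps between replicates at 6 and 12 h correlated with r = 0.035 across genes and those of other times with r = -0.159 to 0.0273. Such correlations cannot settle whether libraries were paired. With the replicate block 2228 genes were called (952 higher, 1276 lower) and 1420 differences between the lines. With 2 libraries a time, low counts limit genes near 1 CPM, and the spread at 12 h rests on a single pair.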
